A study of Homo sapiens with 16 samples.

Results

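The 10 genes FABP1, LCT, RBP2, SLC26A3, MUC17, ACSL5, CEACAM1, TSPAN8, S100P and CDH17, all protein-coding and known from gut epithelium, were followed across 16 libraries of differentiated human stem cells. They were picked by name, out of 62754 genes in the deposited counts, because measured values of these same libraries had shown them higher in cultures given rottlerin than in cultures given the solvent DMSO. Their own difference between rottlerin and DMSO is therefore given as a description with no test. Tests of these 10 genes are kept to the other compounds, and genes outside the choice were tested in every comparison.

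Enterocytes are the absorptive cells of the intestinal lining. Their upper face carries the brush border, a dense field of microvilli that holds digestive enzymes, transporters and membrane mucins, while binding proteins in the cytoplasm carry fatty acids and retinol to the sites where they are esterified and packed into chylomicrons. The intestinal programme is driven by transcription factors of the CDX, HNF4, HNF1 and GATA families. Gut and pancreas both arise from definitive endoderm, and cultures that aim at one of these organs can hold cells of the other.

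The cultures were planar differentiations of the human embryonic stem cell line HUES8 (wild type genotype) towards islets, and 2 libraries were made per treatment. Rottlerin, a plant polyphenol used against protein kinase C delta, was given at 1.23 uM, colchicine at 10 nM, epirizole at 2.5 uM, Ly-294002 at 120 nM, moxifloxacin at 1.1 uM, vardenafil at 125 nM and rimonabant at 125 nM, and the last group received DMSO. Each was present from stage 5 through 7 days of stage 6, and every library carried the label batch 1. All values come from a single cell line and from RNA of whole cultures, so fewer cells of a type and less RNA per cell cannot be told apart. Nothing in the labels tells whether paired libraries of a treatment came from separate differentiations, so a p-value here reflects a spread that may be technical.

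Libraries held 23294377 to 30701868 counted reads. Levels are given as CPM, the reads of a gene relative to the total of its library, with totals scaled between libraries by the TMM method. The insulin gene INS reached 0.652 to 6.25 CPM (17 to 180 reads) and the granule protein gene CHGA 32.9 to 310 CPM. Endocrine transcripts were thus present but insulin was scarce. VIL1, which encodes the microvillus protein villin, and CDX2, a master regulator of intestinal identity, had 219 CPM or more and 68.3 CPM or more in every library, so transcripts of gut epithelium were present in every treatment, DMSO included. All 10 genes passed the filter on low counts in the fit of all libraries and in a fit of the 12 libraries of the other 6 compounds.

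Levels of different genes were compared per length, as CPM per kilobase of exon (RPKM). CDH17, a cadherin that joins neighbouring enterocytes, had a median of 145.5 RPKM over the 16 libraries and stood above 99.6% of tested genes. TSPAN8 followed with 5.74, FABP1 with 5.31, S100P with 3.32, LCT with 1.53, CEACAM1 with 1.10, SLC26A3 with 0.988, ACSL5 with 0.668, RBP2 with 0.552 and MUC17 with 0.0315 RPKM. The set therefore joins an abundant transcript with genes near the lower end of what these libraries register. RBP2 rested on 104 and 53 reads in the rottlerin libraries and on 15 and 7 reads in the DMSO libraries, and MUC17 on 80 and 63 reads against 11 and 10.

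Promoters of 3 members are shown because they hold matches to motifs of the intestinal transcription factors. The sequences are those of RefSeq on GRCh38.p14, from 250 bases before to 50 bases after the gene start, all on the minus strand, read 5′ to 3′. FABP1 is at chr2:88128013-88128312, RBP2 at chr3:139476467-139476766 and SLC26A3 at chr7:107803174-107803473. Capitals mark the matches, and positions count back from the gene start.
FABP1: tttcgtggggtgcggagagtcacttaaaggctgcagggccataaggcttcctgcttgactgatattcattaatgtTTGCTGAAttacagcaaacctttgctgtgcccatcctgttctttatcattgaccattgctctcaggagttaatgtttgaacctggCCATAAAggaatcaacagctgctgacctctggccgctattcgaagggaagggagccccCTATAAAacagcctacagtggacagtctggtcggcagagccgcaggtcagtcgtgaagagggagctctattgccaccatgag
RBP2: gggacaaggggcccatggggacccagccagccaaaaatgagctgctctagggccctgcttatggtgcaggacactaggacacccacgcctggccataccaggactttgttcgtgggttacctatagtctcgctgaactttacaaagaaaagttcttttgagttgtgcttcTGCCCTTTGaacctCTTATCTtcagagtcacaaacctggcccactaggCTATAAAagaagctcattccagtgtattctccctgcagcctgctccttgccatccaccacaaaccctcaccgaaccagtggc
SLC26A3: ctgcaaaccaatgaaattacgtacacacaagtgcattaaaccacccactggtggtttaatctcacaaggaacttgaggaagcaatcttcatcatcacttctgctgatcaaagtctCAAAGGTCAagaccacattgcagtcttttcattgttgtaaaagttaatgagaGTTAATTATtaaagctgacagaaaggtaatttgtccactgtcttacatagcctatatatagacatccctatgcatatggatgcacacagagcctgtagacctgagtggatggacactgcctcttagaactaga

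The motifs were searched on both strands as TTTATNG for CDX, CAAAGNNCA for HNF4, AGATAAG for GATA, GTTAATNAT for HNF1 and TTGCNNAA for CEBP factors. In the FABP1 promoter, CDX matches began at -90 and -32 and a CEBP match at -175. RBP2 held an HNF4 match at -80, a GATA match at -66 and a CDX match at -32. The CDX matches at -32 in both genes read CTATAAA and thus overlap a TATA box. SLC26A3 held an HNF4 match at -135 and an HNF1 match at -83. Of the 8 members whose promoters were searched, 3 held the CDX motif, against 9.73% of 35116 promoters, 3 the HNF4 motif, against 5.28%, and 1 each the GATA motif (2.68%), the HNF1 motif (0.792%) and the CEBP motif (10.5%). MUC17 was the third gene with the HNF4 motif and ACSL5 the third with the CDX motif, and CEACAM1, TSPAN8 and S100P held none of the 5. LCT had no promoter entry and CDH17 was left out of the search. Member counts are per gene while the percentages are per promoter, and ACSL5 and TSPAN8 each had more than 1 promoter, so the shares are not strictly alike. Such matches describe letters in a window and not binding.

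The first group of members binds or activates lipids inside the cell. FABP1 (ENSG00000163586) encodes the liver-type fatty acid binding protein, which is abundant in enterocytes and hepatocytes, and lies on chromosome 2 at 88122982 to 88128116, minus strand (GRCh38). It had 29.6 and 30.4 CPM in the rottlerin libraries, against 14.8 and 13.2 CPM in the DMSO libraries, and 8.23 to 20.3 CPM (median 11.5) in the 12 libraries of the other compounds. The rottlerin libraries did not overlap any other library, and the difference from DMSO was 1.10 on the log2 scale (SE 0.25).

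ACSL5 (ENSG00000197142) encodes an acyl-CoA synthetase that activates long-chain fatty acids and lies on chromosome 10 at 112374018 to 112428380, plus strand. Its level was 9.86 and 8.72 CPM with rottlerin, against 2.88 and 2.34 CPM with DMSO, and 1.59 to 4.26 CPM in the 12 libraries of the other compounds. No member had a wider gap between the lower rottlerin library and the highest other library, a ratio of 2.05, and the log2 difference from DMSO was 1.83 (SE 0.32). ZDHHC6, which overlaps ACSL5 on the opposite strand, had 33.8 and 33.8 CPM with rottlerin, against 42.5 and 42.1 CPM with DMSO, so reads of that gene did not move with ACSL5. Among relatives of ACSL5, ACSL1 had a log2 difference of 0.01 (SE 0.15) and ACSL3 one of -0.30 (SE 0.09, edgeR adjusted p = 0.150).

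RBP2 (ENSG00000114113) encodes the cellular retinol binding protein of enterocytes, which hands retinol to the enzyme LRAT for esterification, and lies on chromosome 3 at 139452884 to 139480747, minus strand. It had 3.43 and 1.80 CPM in rottlerin libraries, against 0.654 and 0.269 CPM in DMSO libraries, and 0.170 to 1.01 CPM in the other 12. Its log2 difference of 2.51 (SE 0.58) carried a wide error and ran from 1.99 without Rottlerin 1 to 3.27 without DMSO 1. LRAT itself had 59.3 and 89.6 CPM with rottlerin, against 85.4 and 74.6 CPM with DMSO, which overlap.

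The second group works at the brush border surface. LCT (ENSG00000115850) encodes lactase, the enzyme that splits milk sugar, and lies on chromosome 2 at 135787840 to 135837180, minus strand. It reached 23.8 and 35.3 CPM with rottlerin, against 8.37 and 7.52 CPM with DMSO, and lay at 7.91 to 17.1 CPM in the 12 libraries of the other compounds. The 2 rottlerin libraries differed from each other more than the DMSO libraries did but stayed above all others, with a log2 difference of 1.90 (SE 0.31). LCT is also the member whose DMSO mean was the lowest of all 8 groups, so every compound had a higher mean than DMSO.

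MUC17 (ENSG00000169876) encodes a membrane mucin of the enterocyte surface and lies on chromosome 7 at 101020072 to 101058745, plus strand. It had 2.64 and 2.15 CPM with rottlerin, against 0.480 and 0.384 CPM with DMSO, and 0.106 to 1.12 CPM in the other 12 libraries. The log2 difference was 2.46 (SE 0.53). Its neighbours MUC12 and MUC3A encode similar mucins, so reads could be split among them. MUC12 had 8.61 and 10.6 CPM with rottlerin, above the 5.97 and 6.60 CPM with DMSO and above all 12 other libraries, whose highest value was 7.48 CPM. MUC3A had 502 and 642 CPM with rottlerin, against 545 and 458 CPM with DMSO, which overlap.

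SLC26A3 (ENSG00000091138) encodes an exchanger of chloride and bicarbonate on the apical membrane, with its highest known levels in the colon, and lies on chromosome 7 at 107765467 to 107803225, minus strand. Its level was 7.29 and 9.53 CPM with rottlerin, against 3.88 and 2.03 CPM with DMSO, and 1.55 to 4.54 CPM in the 12 libraries of the other compounds. Rottlerin libraries again lay above all 14 others, and the log2 difference was 1.51 (SE 0.33). Its relatives SLC26A2 and SLC26A6 differed by 0.33 (SE 0.15, edgeR adjusted p = 0.328) and 0.46 (SE 0.18, adjusted p = 0.244).

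The third group holds adhesion, membrane and calcium-binding proteins that are spread more widely among epithelia. CEACAM1 (ENSG00000079385) encodes an adhesion molecule of the immunoglobulin family and lies on chromosome 19 at 42507304 to 42561234, minus strand. It had 14.3 and 13.8 CPM with rottlerin, against 7.89 and 6.25 CPM with DMSO, and 3.01 to 10.6 CPM elsewhere, with a log2 difference of 0.99 (SE 0.31). The antisense gene LIPE-AS1, which overlaps it, had 3.76 and 2.21 CPM with rottlerin, against 2.31 and 3.38 CPM with DMSO, and so did not follow it. Its close relative CEACAM6 had 103 and 94.4 CPM with rottlerin, against 58.8 and 38.7 CPM with DMSO, and CEACAM5 had 20.6 and 14.9 CPM, against 9.02 and 5.06 CPM. The rottlerin libraries lay above both DMSO libraries for both relatives, but not above all libraries of the other compounds. In those 12 libraries CEACAM6 had 20.5 to 108 CPM and CEACAM5 0.813 to 15.3 CPM. Estimates against DMSO were loose, with log2 differences of 1.02 (SE 0.46) for CEACAM6 and 1.34 (SE 0.71) for CEACAM5, and neither passed the edgeR test.

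TSPAN8 (ENSG00000127324) encodes a tetraspanin of gut epithelium and lies on chromosome 12 at 71125085 to 71441898, minus strand. Its level was 22.0 and 31.7 CPM with rottlerin, against 17.7 and 13.5 CPM with DMSO, with a log2 difference of 0.78 (SE 0.23). Colchicine 1, at 21.7 CPM, nearly reached the lower rottlerin library, a ratio of 1.02 between them. LGR5, the stem cell receptor gene that overlaps TSPAN8 on the opposite strand, had at most 92 reads in a library, against 227 or more for TSPAN8.

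S100P (ENSG00000163993) encodes a small calcium-binding protein and lies on chromosome 4 at 6693069 to 6697170, plus strand. It had 8.91 and 11.9 CPM with rottlerin, against 3.75 and 4.11 CPM with DMSO, and 2.61 to 8.13 CPM in the other 12 libraries. As for TSPAN8, the library next below rottlerin was Colchicine 1, at a ratio of 1.10, and the log2 difference from DMSO was 1.40 (SE 0.29).

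CDH17 (ENSG00000079112), on chromosome 8 at 94127171 to 94217303, minus strand, differed from the other members. It had 595 and 685 CPM with rottlerin, against 583 and 507 CPM with DMSO, and 436 to 627 CPM in the 12 libraries of the other compounds. The lower rottlerin library exceeded 10 of the 14 other libraries, and the log2 difference was 0.23 (SE 0.12). The most abundant member by far was thus the one whose level stood apart least.

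In the description of all 10, the log2 differences between rottlerin and DMSO ran from 0.23 to 2.51 with a median of 1.46, while the median over all 24515 tested genes was -0.00449. Both rottlerin libraries lay above both DMSO libraries for 10 of 10 members, against 23.6% of tested genes, and above all 14 other libraries for 9 of 10, against 0.930%. These counts come from the contrast that chose the members, so nothing is read from them.

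**Figure D1:**
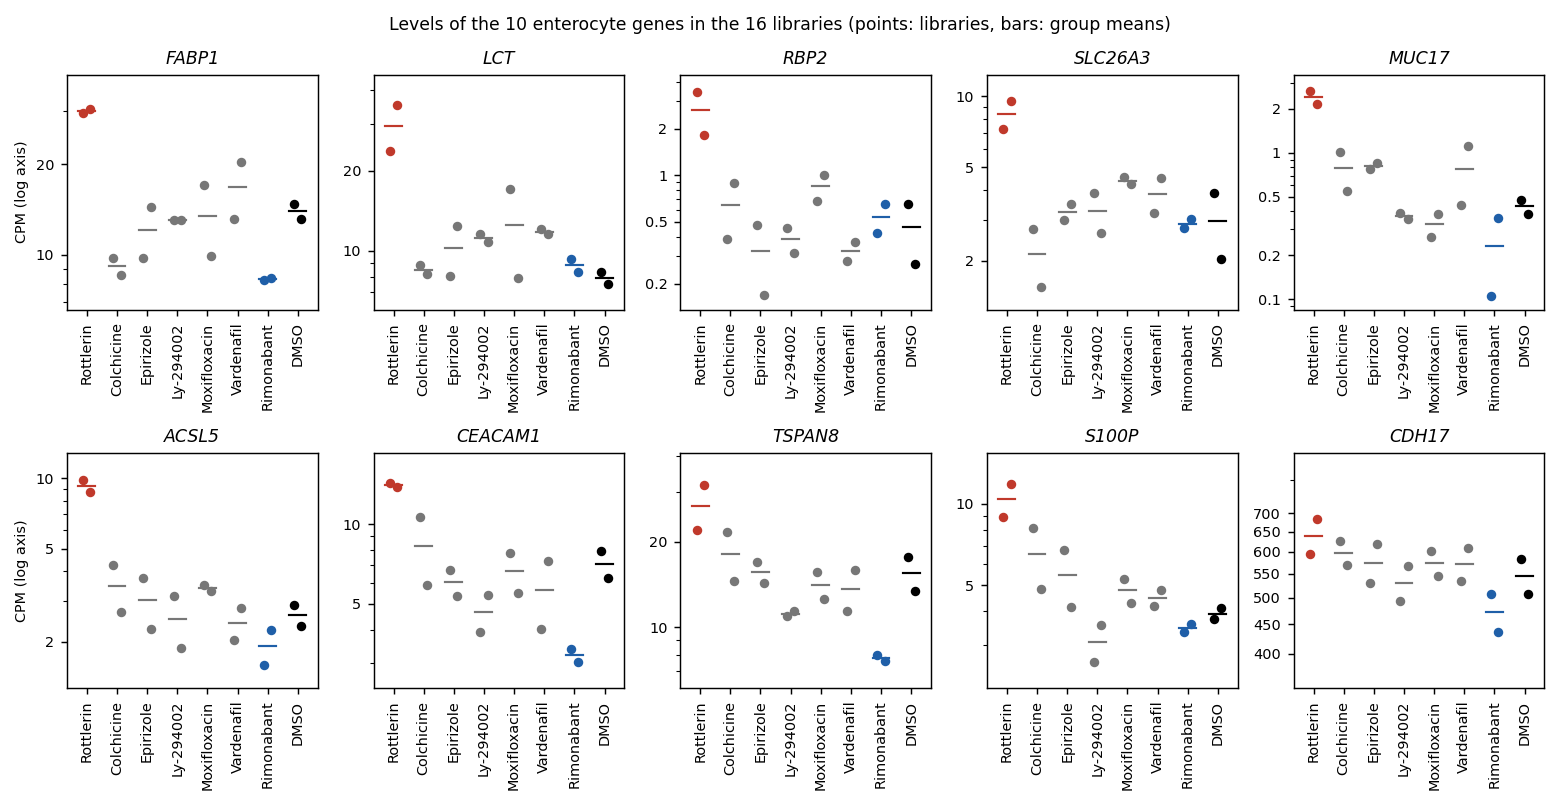
Each panel plots the CPM (log axis) of 1 gene in the 16 libraries by treatment, with points for libraries and bars for the mean of the 2 libraries. Rottlerin libraries lie above all 14 others for 9 of 10 genes, with CDH17 as the exception, and rimonabant libraries hold the lowest values of CEACAM1 and TSPAN8.

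Set against the mean of the other 6 compounds, which played no part in the choice, rottlerin differed by much the same amounts. The log2 differences were 1.34 (SE 0.17) for FABP1, 1.51 (SE 0.20) for LCT, 2.44 (SE 0.35) for RBP2, 1.39 (SE 0.22) for SLC26A3 and 2.27 (SE 0.33) for MUC17. ACSL5 followed with 1.77 (SE 0.21), CEACAM1 with 1.35 (SE 0.21), S100P with 1.21 (SE 0.20), TSPAN8 with 1.05 (SE 0.16) and CDH17 with 0.21 (SE 0.09). The rottlerin libraries are the same as in the choice, so these values too are a description.

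The 2 rottlerin libraries were unlike each other in endocrine content and alike in the mean of the enterocyte genes. The mean log2 CPM of the 18 tested endocrine genes was 3.58 in Rottlerin 1 and 1.91 in Rottlerin 2, and CHGA had 222 CPM in Rottlerin 1 and 32.9 CPM in Rottlerin 2. The mean log2 CPM of the 10 enterocyte genes was 3.96 in Rottlerin 1 and 4.03 in Rottlerin 2, against 2.06 to 2.93 in the 14 other libraries. Single members differed in both directions, with RBP2 1.90-fold higher in Rottlerin 1 and LCT 1.48-fold higher in Rottlerin 2. The median ratio of the higher to the lower library over the members was 1.27 with rottlerin and 1.24 with DMSO. The members were chosen for their levels in these same rottlerin libraries, so nothing is read from their separation from the others. The part of endocrine content in the members' levels was not tested.

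**Figure D2:**
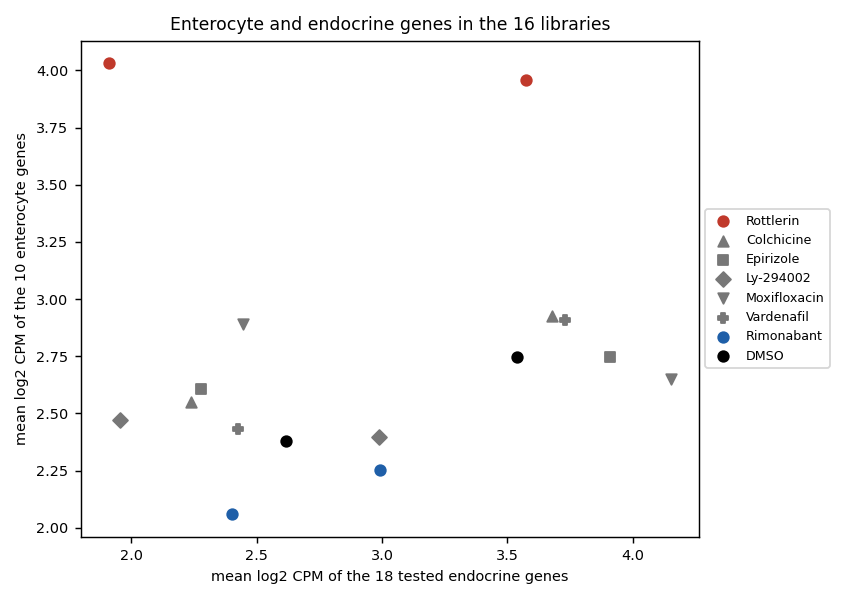
Each point is a library, with the mean log2 CPM of the 18 tested endocrine genes on the x axis and that of the 10 enterocyte genes on the y axis. The rottlerin libraries lie at 1.91 and 3.58 on the x axis and both near 4 on the y axis, and the other 14 libraries lie between 2.06 and 2.93 on the y axis over a similar span of x.

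The share of reads from genes of different GC content also differed between these groups. The gap between genes of high and low GC content, as a median log2 deviation from the mean of all libraries, was 0.20 and 0.02 in rottlerin libraries, against -0.36 and -0.42 in DMSO libraries. With an offset for GC content in the fit, the log2 differences between rottlerin and DMSO were 1.15 for FABP1, 1.85 for LCT, 2.51 for RBP2, 1.66 for SLC26A3, 2.47 for MUC17, 1.93 for ACSL5, 1.00 for CEACAM1, 0.94 for TSPAN8, 1.36 for S100P and 0.34 for CDH17. All of these were positive. LCT and S100P were lower than without the offset, and the others were the same or higher, with TSPAN8 at 0.94 against 0.78 and CDH17 at 0.34 against 0.23. This contrast chose the members, so nothing is read from their staying positive, and the part of GC content was not tested.

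Whether the members differed among the other 6 compounds was asked with the 12 libraries that the choice did not use. The joint edgeR quasi-likelihood test called 0 of 10 members at an adjusted p of 0.05, with 0.00415% of 24097 tested genes called. At an unadjusted p under 0.05 this edgeR test had 4 members, TSPAN8 (adjusted p = 0.573) and CEACAM1, FABP1 and S100P (adjusted p = 0.607 each), with 8.16% of tested genes under that mark. Of the members, DESeq2 called TSPAN8 alone, with 264 genes called in all. The ratio of the highest to the lowest group mean among the 6 compounds ran from 1.27 for CDH17 to 3.50 for MUC17. The MUC17 ratio rested on 3 to 27 reads in a library, with 3 reads in Rimonabant 1.

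TSPAN8 had the smallest p of the members in this test. Its group means were 18.1 ± 5.01 CPM with colchicine, 15.7 ± 1.94 with epirizole, 11.2 ± 0.343 with Ly-294002, 14.1 ± 2.18 with moxifloxacin, 13.7 ± 3.22 with vardenafil and 7.83 ± 0.262 with rimonabant (SD, n = 2 each). Rimonabant libraries did not overlap any other group, while the remaining groups, ordered by mean, each overlapped the next. Colchicine had the highest mean of the 6 for 5 members (ACSL5, CEACAM1, TSPAN8, S100P and CDH17), and rimonabant the lowest for 6 (FABP1, MUC17, ACSL5, CEACAM1, TSPAN8 and CDH17).

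Each of these compounds was also compared with DMSO in the fit of all 16 libraries. All these comparisons share the 2 DMSO libraries, which also served in the choice of the members. Rimonabant, an antagonist of the cannabinoid receptor CNR1, was the compound with members past the threshold, 2 of 10 lower, with 2.77% of tested genes lower and 7.8% called in either direction. TSPAN8 fell, with 8.02 and 7.65 CPM with rimonabant, against 17.7 and 13.5 CPM with DMSO, a log2 change of -0.99 (SE 0.24, edgeR adjusted p = 0.0256). CEACAM1 fell as well, with 3.39 and 3.01 CPM with rimonabant, against 7.89 and 6.25 CPM with DMSO, a log2 change of -1.14 (SE 0.32, edgeR adjusted p = 0.0442).

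Both rimonabant libraries were below both DMSO libraries for these genes, yet the calls were not firm. Both were lost without DMSO 1, without DMSO 2, without Rimonabant 2 and with an offset for GC content, where the log2 change was -0.74 for TSPAN8 (adjusted p = 0.446) and -1.16 for CEACAM1 (adjusted p = 0.399). Over all 11 alternatives the adjusted p ranged from 5.73e-05 to 0.542 for TSPAN8 and from 0.000776 to 0.515 for CEACAM1. Rimonabant 2 had the largest GC gap of all libraries, 0.83, against -0.42 to 0.20 in the others. All 13 mitochondrially encoded genes lay below DMSO with rimonabant, with a median log2 difference of -0.79, and 4 of them fell past the edgeR threshold (MT-ND6, MT-ND5, MT-ND2 and MT-ATP8). Their summed level was 14152 to 21798 CPM over the rimonabant libraries, against 26523 to 28364 CPM over the DMSO libraries. Their part in the falls of TSPAN8 and CEACAM1 was not tested. FABP1 had 8.23 and 8.40 CPM with rimonabant, against 14.8 and 13.2 CPM with DMSO, a log2 difference of -0.75 (SE 0.25) that missed the threshold with edgeR (adjusted p = 0.0799) and passed it with DESeq2 (adjusted p = 0.0234). The other 7 members had adjusted p of 0.313 or more, with log2 differences from -0.86 for MUC17 to 0.24 for RBP2.

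Calls among other gut genes with rimonabant ran in both directions, with 7.8% of all tested genes called. They were 1 of 14 tested brush border enzymes, 2 of 15 gut epithelium surface genes, 3 of 16 lipid genes and 1 of 7 colonocyte genes. Of 21 gut transcription factors, 1 rose and 1 fell. No gene of the other gut lists was called. Nothing particular to gut genes is read from these calls. Rimonabant raised ANPEP, a brush border peptidase, by 0.55 (SE 0.11, edgeR adjusted p = 0.0137). The tight junction genes CLDN7 and CLDN3 rose by 0.41 (adjusted p = 0.0155) and 0.78 (adjusted p = 0.0262). Of the lipid genes, DGAT1 rose by 0.87 (adjusted p = 0.0186), APOA1 by 0.90 (adjusted p = 0.0259) and NPC1L1 by 1.01 (adjusted p = 0.0455). The transcription factor gene CEBPA rose by 0.53 (SE 0.15, adjusted p = 0.0411). KLF5, a factor of crypt cells, fell by 0.38 on the log2 scale (adjusted p = 0.0230), and SLC4A4, a bicarbonate transporter, fell by 0.58 (adjusted p = 0.0402). With the offset for GC content, 0 of all tested genes were called in this comparison by edgeR, while DESeq2, without an offset, called 2936 genes.

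With colchicine, which blocks tubulin polymerisation, 0 of 10 members passed the edgeR threshold, with 0.196% of tested genes called, and 2 of 10 had an unadjusted p under 0.05, with 17.5% of tested genes there. FABP1 had 9.77 and 8.61 CPM with colchicine, against 14.8 and 13.2 CPM with DMSO, a log2 difference of -0.61 (SE 0.25, adjusted p = 0.225). S100P had 8.13 and 4.86 CPM with colchicine, against 3.75 and 4.11 CPM with DMSO, a log2 difference of 0.72 (SE 0.29, adjusted p = 0.210). These 2 genes lay on opposite sides of DMSO without overlap, and DESeq2 called 0 of 10.

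The remaining 4 compounds gave no member past the edgeR threshold, no member at an unadjusted p under 0.05 and none by DESeq2. Tested genes called were 0% for epirizole, 0% for Ly-294002, 0% for moxifloxacin and 0% for vardenafil, and those under the unadjusted mark were 5.26%, 4.69%, 11.9% and 5.22% in that order. Median log2 differences of the members from DMSO were 0.11 with epirizole, -0.15 with Ly-294002, 0.18 with moxifloxacin and 0.13 with vardenafil, beside 0.22 with colchicine and -0.32 with rimonabant. Rimonabant had 3 of 10 members under the unadjusted mark, with 24.8% of tested genes there.

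**Figure D3:**
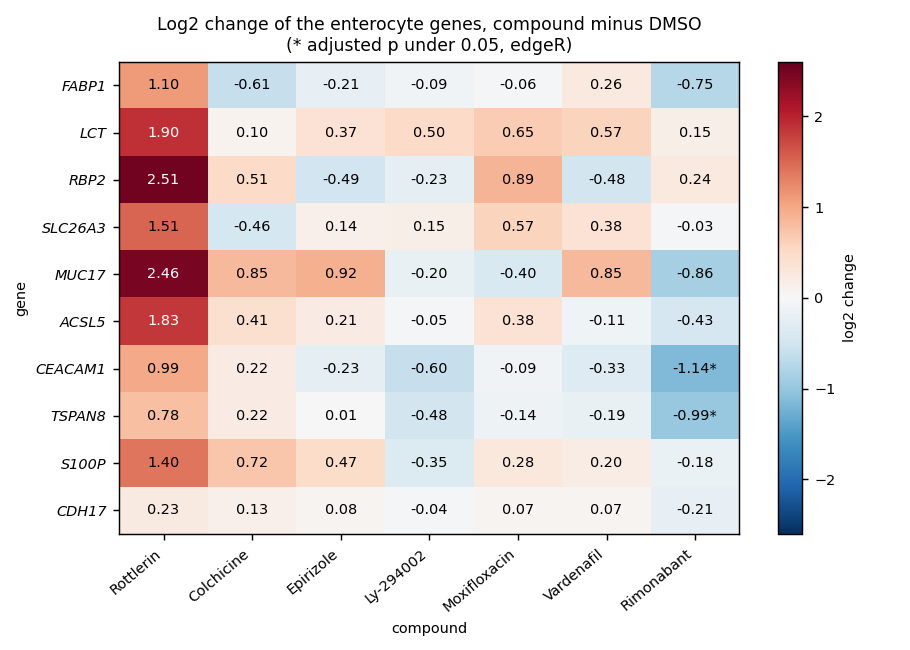
The heatmap gives the log2 change of each gene (rows) for each compound against DMSO (columns), with values printed in the cells and a star where the edgeR adjusted p was under 0.05. The rottlerin column is positive throughout, from 0.23 to 2.51, and is the contrast that chose the genes, while the stars are the falls of CEACAM1 and TSPAN8 with rimonabant.

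Over the 12 libraries that the choice did not use, the members did not vary as a single block. Of 45 pairs, 34 had a positive Pearson r of log2 CPM, 18 had an r over 0.5, and the median was 0.33 (range -0.41 to 0.96, a description, n = 12 libraries that come in pairs of 1 treatment). The 6 genes MUC17, ACSL5, CEACAM1, TSPAN8, S100P and CDH17 had r from 0.33 to 0.96 among their 15 pairs, with a median of 0.72. FABP1, LCT and SLC26A3 formed a second set with r of 0.82, 0.65 and 0.53. Between the 2 sets the median of 18 pairs was 0.09, and RBP2 had a median of -0.12 with the other 9 members. The sets were drawn after the values were seen. No share over pairs of other genes was computed, so these counts are not read as particular to the members.

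CEACAM1 and TSPAN8 ran closest together, with r = 0.96 (Spearman rho 0.95), r = 0.91 without the 2 libraries farthest from the median and r = 0.93 without the rimonabant libraries. FABP1 and LCT had r = 0.82 (rho 0.71), and 0.87 without the 2 farthest libraries. Other pairs within the sets were looser, and without the 2 farthest libraries FABP1 and SLC26A3 dropped to r = 0.44, as did ACSL5 and S100P, from 0.65 with all 12 for each pair. FABP1 and TSPAN8 had r = 0.33 (rho 0.31) and, without the rimonabant libraries, -0.14. RBP2 rested on 5 to 29 reads in each of these libraries and MUC17 on 3 to 27, so the r values of both genes are loose.

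**Figure D4:**
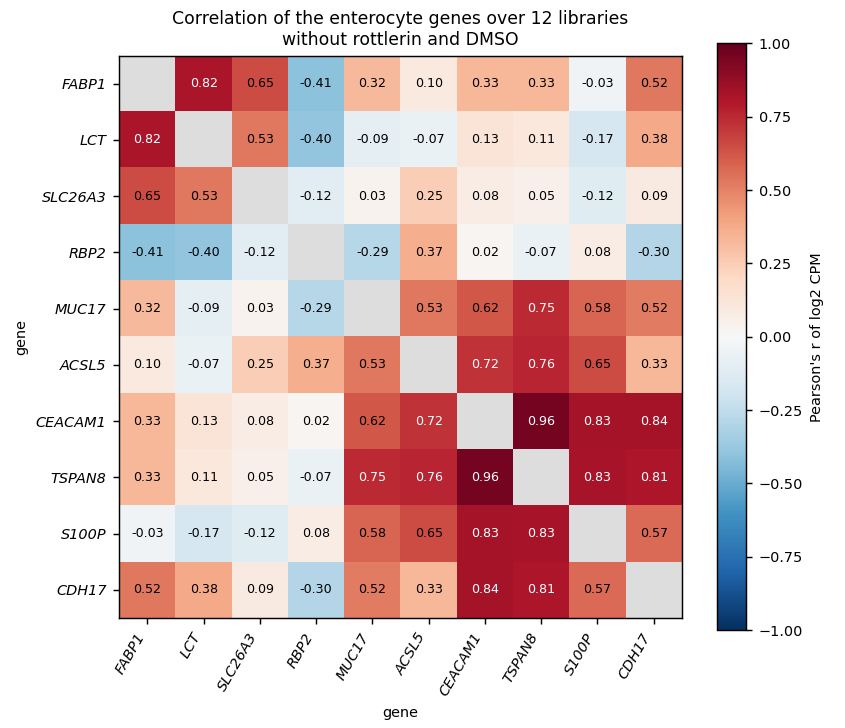
The heatmap gives Pearson's r of log2 CPM for each pair of genes over the 12 libraries without rottlerin and DMSO. A block of 6 genes from MUC17 to CDH17 holds r of 0.33 to 0.96, FABP1, LCT and SLC26A3 hold 0.53 to 0.82, and RBP2 is near or below 0 with most genes.

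The mean standardised profile of the 10 members over these 12 libraries was most like those of STOM, which encodes the membrane protein stomatin (r = 0.94), GCNT3, a glycosyltransferase that builds mucin core chains (r = 0.93), and SUSD1 (r = 0.92), among 17591 genes with a mean of at least 1 CPM. The next were EXOC8, YIPF4, KIF3B, TSPAN6, FARP2, ANXA13 and ETNK1, down to r = 0.88. ANXA13 is an annexin of intestinal epithelium. STOM averaged 134 CPM with rottlerin, against 89.7 CPM with DMSO, and GCNT3 8.97 against 6.65 CPM, while YIPF4 averaged 78.7 against 78.9 CPM. Likeness over the other compounds thus did not carry over to a difference with rottlerin in each of these genes.

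The same profile had r = 0.76 with the mean of the gut epithelium surface genes, 0.74 with transporters, 0.62 with gut transcription factors, 0.56 with brush border structure and 0.56 with stomach genes. Other gut lists were less like it or ran the other way, with r = 0.49 for goblet and Paneth cells, 0.44 for colonocytes, 0.41 for lipid uptake and chylomicrons, 0.37 for brush border enzymes, -0.23 for intestinal stem cells and -0.61 for retinoid handling. It had r = 0.39 with endocrine genes, 0.43 with liver genes, -0.44 with mesenchyme genes and -0.67 with trophoblast and surface ectoderm genes. These are descriptions over 12 libraries that share their scaling.

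Lists of other gut genes were then set beside the members in rottlerin against DMSO, with the fit over all 24515 tested genes, of which 49.4% had a positive difference. In the 17 lists together, 1 gene passed the edgeR test, the transcription factor CEBPA. Of the gut epithelium surface list, 15 of 15 tested genes had a positive log2 difference, with a median of 0.90. MUC13, a membrane mucin, had 245 and 340 CPM with rottlerin, against 192 and 122 CPM with DMSO, and CLDN7 88.0 and 90.5 CPM, against 66.1 and 65.4 CPM. In the 12 libraries of the other compounds MUC13 had 106 to 247 CPM, and CLDN7 had 86.6 and 87.9 CPM with rimonabant. EPCAM, a general epithelial marker, had 376 and 419 CPM, against 381 and 388 CPM, which overlap.

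Of the lipid uptake and chylomicron genes, 13 of 16 had a positive difference, with a median of 0.63. APOA1, an apolipoprotein of chylomicrons and high-density lipoprotein, had 277 and 217 CPM with rottlerin, against 150 and 106 CPM with DMSO (log2 difference 0.95, SE 0.20, edgeR adjusted p = 0.0814). With rimonabant APOA1 had 199 and 280 CPM. APOB, the structural protein of chylomicrons, had 887 and 1173 CPM, against 790 and 712 CPM. FABP2, the intestinal fatty acid binding protein and closest functional relative of FABP1, was scarce, with at most 32 reads in a library. It had 1.06 and 0.919 CPM with rottlerin, against 0.654 and 0.384 CPM with DMSO. In the 12 libraries of the other compounds FABP2 had 0 to 0.416 CPM. The ileal FABP6 had at most 4 reads.

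Transporters had a positive difference in 16 of 17, with a median of 0.46. SLC46A1, the folate carrier of the upper gut, had 120 and 172 CPM with rottlerin, against 99.0 and 82.3 CPM with DMSO, and SLC15A1, the peptide transporter, 46.4 and 45.3 CPM, against 34.7 and 20.8 CPM. In the 12 libraries of the other compounds SLC15A1 had 19.9 to 43.0 CPM. The glucose transporter SLC5A1 had at most 6 reads.

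Brush border enzymes did not follow LCT as a group. Of 14 tested, 10 had a positive difference, with a median of 0.16. SI, which encodes sucrase-isomaltase and is the disaccharidase most used as an enterocyte marker, lay the other way, with 139 and 95.5 CPM with rottlerin, against 162 and 192 CPM with DMSO, a log2 difference of -0.59 (SE 0.16, edgeR adjusted p = 0.124). The 12 libraries of the other compounds had 117 to 181 CPM of SI (median 133), and the mean of DMSO was the highest of the 8 groups, so a level under DMSO was shared by all 7 compounds. ANPEP had 279 and 299 CPM with rottlerin, against 189 and 215 CPM with DMSO (0.52, SE 0.11, edgeR adjusted p = 0.0657). The 12 libraries of the other compounds had 218 to 316 CPM of ANPEP. DPP4 had 186 and 203 CPM, against 165 and 180 CPM.

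Structural genes of the brush border had 8 of 13 positive differences with a median of 0.27, and retinoid handling genes 7 of 11 with a median of 0.12. Goblet and Paneth cell genes had 7 of 8 positive, with a median of 0.55, of which AGR2 had 125 and 137 CPM with rottlerin, against 81.0 and 71.3 CPM with DMSO. Colonocyte genes had 5 of 7 positive, with a median of 0.30, and intestinal stem cell genes 2 of 6, with a median of -0.06. The members' median of 1.46 was above that of every list, as their choice requires.

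Of 21 gut transcription factors, 17 had a positive difference, with a median of 0.28. CEBPA, a factor of lipid metabolism in liver, fat and gut, rose, with 48.4 and 64.7 CPM with rottlerin, against 27.0 and 24.0 CPM with DMSO and 26.4 to 41.0 CPM in the 12 other libraries, a log2 change of 1.15 (SE 0.15, adjusted p = 0.0295). It is 1 of the 2 genes called in this comparison, 0.00816% of those tested. With an offset for GC content, without DMSO 1, without DMSO 2 or without Rottlerin 2, 0 genes were called by edgeR, while DESeq2 called 678 genes and 3623 had an unadjusted edgeR p under 0.05 in the fit of all libraries. CEBPA also rose with rimonabant, which shares the DMSO libraries. HNF4A had 184 and 217 CPM with rottlerin, against 146 and 118 CPM with DMSO (0.60, SE 0.14, edgeR adjusted p = 0.0875). The 12 libraries of the other compounds had 132 to 203 CPM of HNF4A. CDX2 had 99.0 and 102 CPM, against 77.5 and 68.3 CPM, and 6 of the 12 libraries of the other compounds were above both rottlerin libraries. KLF5 had 357 and 351 CPM, against 371 and 433 CPM.

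**Figure D5:**
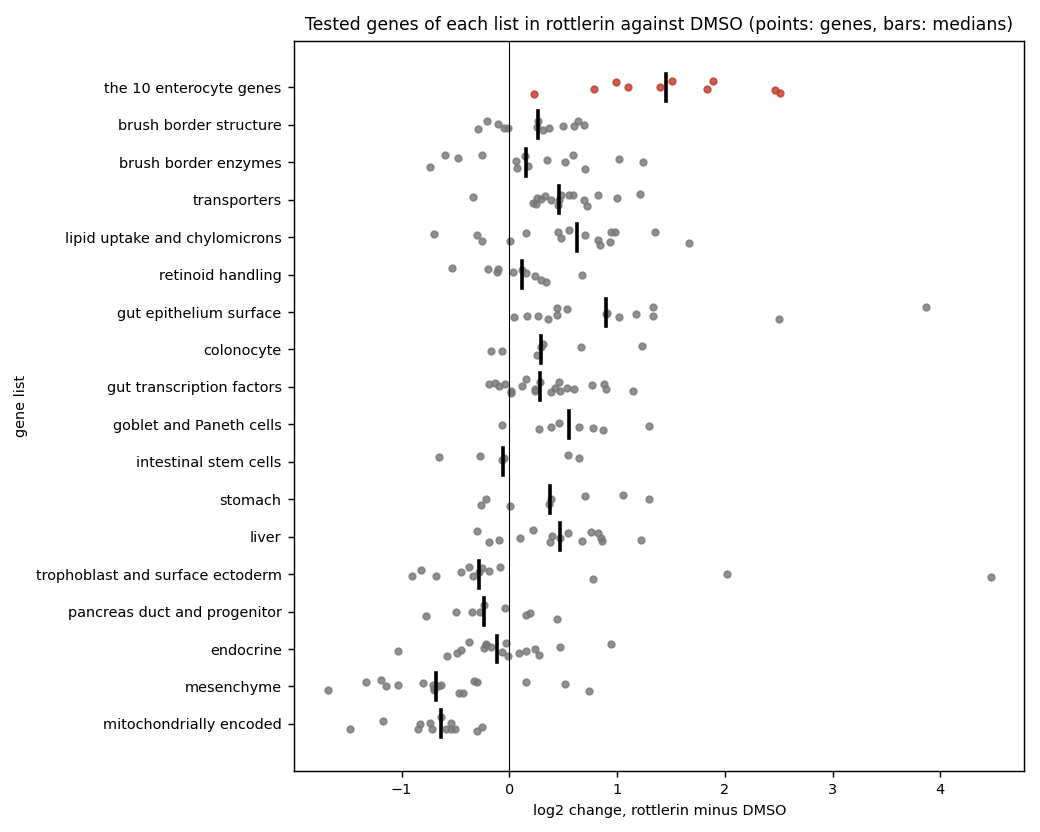
Each point is a tested gene, placed by its log2 difference between rottlerin and DMSO, in rows for the 10 enterocyte genes and 17 other lists, and the black bars are medians. Medians of the gut lists lie between -0.06 and 0.90, the mesenchyme and mitochondrially encoded lists lie at -0.68 and -0.64, and the members lie at 1.46.

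Genes of other cell types differed between these groups as well. Liver genes, some of which enterocytes also express, had 12 of 15 positive differences with a median of 0.47. Their summed level was 7080 and 10184 CPM in rottlerin libraries, against 7358 and 5877 CPM in DMSO libraries, which overlap. The median of liver genes was positive with every other compound too, from 0.21 with vardenafil to 0.44 with colchicine. Stomach genes had 6 of 8 positive with a median of 0.38 and sums of 135 and 127 CPM, against 96.5 and 80.7 CPM, while the stomach markers GKN1, GKN2, MUC5AC and PGC had at most 6 reads in a library. Mesenchyme genes had 3 of 18 positive with a median of -0.68 and sums of 2930 and 3046 CPM, against 3812 and 3479 CPM, with no overlap. A low mesenchyme median was shared by colchicine (-0.74), moxifloxacin (-0.61) and vardenafil (-0.36). It was 0.06 with epirizole, 0.22 with Ly-294002 and 0.05 with rimonabant. Endocrine genes had 6 of 18 positive with a median of -0.12, duct and progenitor genes 3 of 9 with -0.24, and trophoblast and surface ectoderm genes 3 of 13 with -0.28. The 13 mitochondrially encoded genes all lay below DMSO, with a median of -0.64, and they did so with each of the 7 compounds, with medians from -0.79 with rimonabant to -0.24 with epirizole. The part of these differences in the members' levels was not tested.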

How the data were processed

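Total RNA of whole cultures was sequenced from both ends after removal of ribosomal RNA (KAPA RNA HyperPrep with RiboErase), per the labels' protocols. The same protocols list FastQC 0.11.8 and Trimmomatic 0.38 for quality and trimming, STAR 2.7.1a for alignment, Picard 2.20.4, StringTie 2.0.4, and featureCounts 1.6.0 or HTSeq for counting; the submitters' processing notes named HTSeq and GRCh38. The deposited values were raw counts per gene for 62754 genes in 16 libraries, with no column left unmapped to a sample. Strand setting and multiply mapped reads are not given in the sources used here, so genes that overlap another on the opposite strand (LCT, RBP2, ACSL5, CEACAM1 and TSPAN8) and members of the CEACAM and mucin families are uncertain.

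Counts were fitted in R 4.3.3 with edgeR 4.0.16 (filterByExpr, TMM factors, robust quasi-likelihood F test, two-sided, Benjamini-Hochberg over all tested genes, threshold 0.05). All 16 libraries entered 1 fit with 8 residual degrees of freedom, which kept 24515 genes and 99.9% of the reads. A second fit of the 12 libraries of 6 compounds kept 24097 genes. Standard errors are of the log2 change. Log2 CPM for correlations used a prior count of 2. A floor of 3 reads was 0.0977 to 0.129 CPM and covers counting error only. Exon length, GC content and gene positions came from GENCODE annotation of GRCh38, and promoters from RefSeq. Scripts were tested on simulated data.

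The members and the gene lists were chosen with earlier results of these data known. Named genes were the 10 members, the 3 most abundant genes of each list, list genes past the threshold (up to 4 per list and comparison) and the 10 genes most like the members' mean profile. Relatives and neighbours of members, and genes named as scarce, were added after their values were seen. Alternatives were DESeq2 1.42.0, its size factors, no filter, a replicate block, an offset for GC content (spline with 5 degrees of freedom), only the 4 libraries compared, and leaving out each library. Replicate numbers showed no consistent pairing of libraries of different groups, which does not exclude pairing.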

Additional observations from a re-analysis of the deposited data

How the results depend on the processing

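With 2 libraries a group the counts of calls depended on the processing, and the direction of every member that was called did not reverse under any alternative run. The member median between rottlerin and DMSO stayed between 1.25 and 1.66 under all alternatives. The number of members past the threshold in that comparison, which chose them and so supports nothing, was 0 with edgeR, 9 with no filter on low counts, 7 with DESeq2 and 0 to 1 when a library was left out, of which LCT without Rottlerin 1 was the 1 call. For the joint test among the 6 compounds, 3 members were called with no filter (FABP1, CEACAM1 and TSPAN8) and 1 with DESeq2. For rimonabant, the 2 calls became 0 with an offset for GC content, 0 with only the 4 libraries compared and 0 to 1 when a library was left out. With no filter rimonabant had 3 members past the threshold, and with DESeq2 it also had 3. The cause of these changes was not tested.

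Over all genes, the calls for rottlerin numbered 2, against 1076 with no filter, 678 with DESeq2, 0 with the GC offset and 0 to 43 when a library was left out. For rimonabant they numbered 1913, against 2936 with DESeq2, 42 with only the 4 libraries, 0 with the GC offset and 0 to 3833 when a library was left out. The joint test gave 1, against 1810 with no filter, 264 with DESeq2 and 0 to 3 when a library was left out. Colchicine gave 48, with 1 to 1568 over the alternatives.

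Deviations of same-numbered libraries had a correlation of -0.35 to 0.32 over 28 pairs of groups, 9 of them over 0.1. No consistent pairing by replicate number was seen. These values cover the 2000 genes that varied most within groups and have no reference, so they cannot exclude pairing. With the replicate block, rimonabant had 1 member past the threshold, TSPAN8, and 1090 genes in all, and with the block and the GC offset together it had 0 members.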
